A study of Mus musculus with 32 samples.

Results

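Kinesins are the motor proteins that walk along microtubules or take them apart. The genes described here are those whose symbol is Kif or Kifc followed by a number and, where the name has one, a letter, as the study's comparison tables spell them. They number 38 of the 39017 genes counted, and all 38 passed the filter on low counts that left 18484 genes for testing. Total RNA was sequenced from 4 lines of mouse embryonic fibroblasts, the connective tissue cells that grow out of dissociated embryos. The lines were ATMko (ATM knocked out) and its wild type wtATM, and ATMINko (ATMIN knocked out) and its wild type wtATMIN. ATM senses broken DNA and phosphorylates repair and checkpoint proteins, and ATMIN is one of its cofactors. Each line received 1 µM aphidicolin (APH), which inhibits the replicative DNA polymerases and so slows or stalls DNA synthesis, or the solvent DMSO, for 4 h or for 24 h. That makes 16 groups of 2 libraries each. The alleles are not given in the sources used here. With 1 line for each genotype, a difference of genotype and one of line cannot be told apart. The labels do not say whether the 2 libraries of a group came from separate cultures. The p-values therefore measure only the spread between these libraries, which may be technical.

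The family splits by task. Some kinesins are made for cell division: they push spindle poles apart, position chromosomes on the spindle or build the midzone at which the daughter cells separate, and their genes are transcribed mostly in the G2 and M phases of the cell cycle. Others carry organelles, vesicles or ciliary components in cells that need not divide, several of them mainly in neurons or in ciliated cells. Members of the division group are known to be held down between divisions by repressor complexes that bind a short promoter element, the cell cycle genes homology region (CHR). In RNA from whole cultures, fewer cells in a phase or of a type and less RNA per cell cannot be told apart.

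Libraries held 9321329 to 21020662 reads in genes. Levels are given as CPM, a gene's reads as a share of the TMM-scaled library, which compares 1 gene between libraries. Differences are given as log2 fold changes with their standard errors from edgeR's quasi-likelihood fit over all 32 libraries. A gene was called where its Benjamini-Hochberg adjusted p over all 18484 genes was under 0.05. The targeted gene Atmin lay at 3.77 to 6.77 CPM in ATMINko against 20.4 to 32.9 CPM in wtATMIN, and Atm at 17.8 to 45.5 CPM in ATMko against 43.1 to 65.1 CPM in wtATM (the ranges overlap). Reads summed along a gene cannot show a deletion within it, so the second is no check of the label. The 8 fibroblast markers listed (3 collagen genes, Thy1, Pdgfra, Pdgfrb, Vim and Fn1) were all detected in each line. Their summed level was 11290 to 16940 CPM in ATMko, 19170 to 23710 CPM in wtATM, 14990 to 31700 CPM in ATMINko and 7161 to 12140 CPM in wtATMIN. Over the 32 libraries the summed levels of the other marker lists were 0.177 to 22.6 CPM (6 epithelial genes), 3.01 to 8.19 CPM (6 blood genes), 0.0665 to 2.12 CPM (5 endothelial genes) and 0 to 3.81 CPM (5 muscle genes). The 2 ATMko libraries after 4 h of APH stand apart: replicate 2 is the shallowest of the 32 and replicate 1 has the lowest TMM factor, 0.849. Over the 11828 tested genes above 5 CPM their median difference was 0.22 on the log2 scale, against 0.07 to 0.13 between the replicates of the other 15 groups. Counts of called members that rest on these libraries are given with and without each of them. The gene Gm42418 varied widely between the libraries of every line. Its lowest, median and highest levels were 307, 8753 and 97900 CPM in ATMko and 252, 11290 and 41290 CPM in wtATM. In ATMINko they were 291, 7353 and 34340 CPM, and in wtATMIN 301, 7916 and 33950 CPM. Whether this spread bears on the kinesin levels was not tested.

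Per kilobase of exon, Kif20a had the highest level of the kinesins over all libraries; it is the motor that brings the chromosomal passenger complex to the central spindle, and averaged 63.4 ± 23.0 RPKM (CPM per kilobase of exon, the scale on which genes are compared; mean ± SD over all 32 libraries). Next came Kif1c, a vesicle motor of the kinesin-3 class, at 46.5 ± 13.8 RPKM and Kif5b, the kinesin-1 heavy chain of most cell types, at 36.5 ± 8.98 RPKM, then Kifc1 at 30.5 ± 8.99 RPKM and Kif2c at 24.4 ± 8.96 RPKM. Neighbours in this order lie within 1 SD of each other, Kif20a and Kif1c included; the SDs span lines, treatments and times. The order of the first 2 turned with line and condition: Kif20a was above Kif1c in 21 of 32 libraries, among them all 16 at 24 h, and below it in the other 11, among them all 8 libraries of wtATM and wtATMIN at 4 h. With APH at 4 h in wtATM, Kif20a averaged 25.6 RPKM and Kif1c 63.7 RPKM, and over the 8 libraries of wtATM 49.0 and 51.2 RPKM. The highest of the kinesin-2 motors was Kif3a at 11.7 ± 2.96 RPKM, and that of the kinesin-4 regulators Kif21a at 8.23 ± 4.37 RPKM. Among the chromosome motors Kif18b led at 20.2 ± 6.28 RPKM, and among the kinesins outside these classes Kifc3 led at 13.5 ± 6.48 RPKM. With the longest transcript or the authors' gene length in place of the union of exons, the first 4 kept their order, while Kif22 moved ahead of Kif18b. At the low end, Kif26a, Kif19a, Kif17, Kif6 and Kif27 averaged under 0.1 RPKM. The neuronal kinesin-1 heavy chains Kif5a and Kif5c averaged 1.00 and 0.651 RPKM, but with a spread between lines that is described further on.

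**Figure D1:**
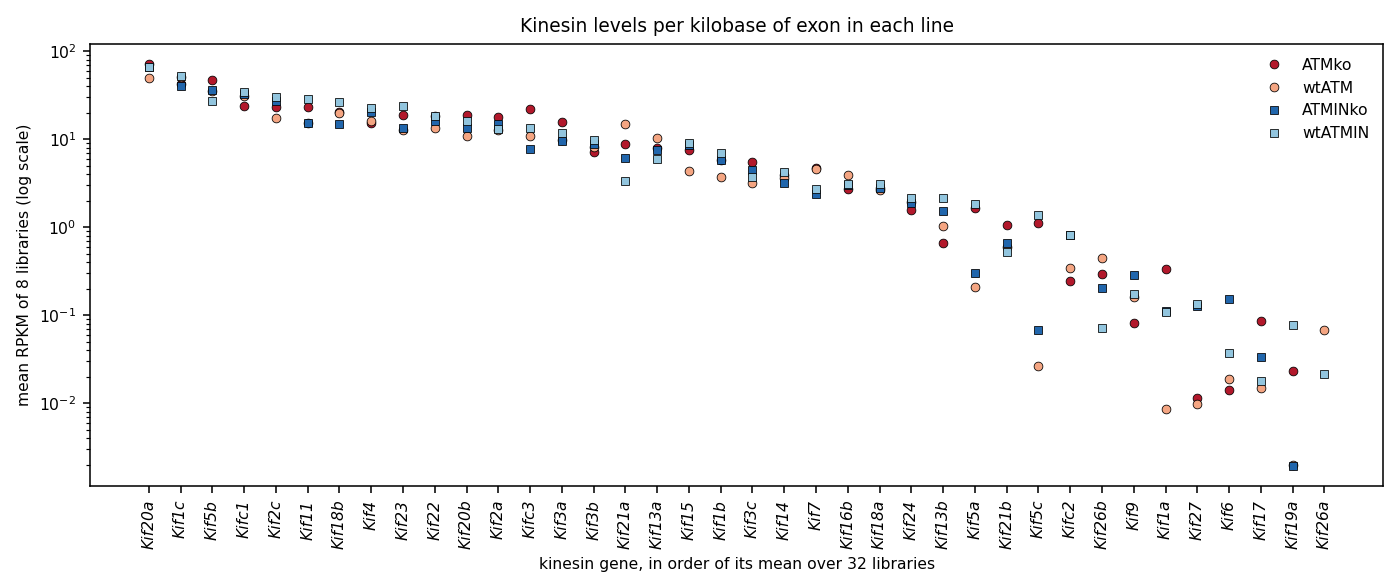
Mean RPKM over the union of exons (log axis) of the 38 kinesins in each line, 8 libraries per point, sorted by the mean over all 32 libraries; lines in which a gene had no read are not drawn. Kif20a is highest at 63.4 RPKM over all lines, and the points of Kif5a, Kif5c and Kif1a lie far apart, with ATMko above wtATM for each of them.

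After 4 h of aphidicolin, the motors of cell division were lower. Of the 11 members in the spindle, chromosome and central spindle roles, 7 fell in ATMko, 8 in wtATM, all 11 in ATMINko and 8 in wtATMIN, and none rose in any line. Their median change on the log2 scale was -0.49, -0.55, -0.81 and -0.46 in the same order of lines, while the median of all genes tested lay between -0.02 and 0.00. Among the other 27 members, 4, 3, 7 and 2 fell and 1, 1, 0 and 1 rose. Over all 38, 11 fell in ATMko, where 15.4% of all genes tested were called lower, 11 in wtATM (background 2.76%), 18 in ATMINko (background 10.9%) and 10 in wtATMIN (background 7.75%). The backgrounds for a rise were 14.0% in ATMko, 2.82% in wtATM, 9.48% in ATMINko and 7.25% in wtATMIN. Without replicate 2 of the ATMko APH libraries 6 of the 11 mitotic members fell and none rose; without replicate 1, 6 fell and 3 rose (Kif15, Kif18a and Kif20b). Over all 38, 7 fell and 1 rose without replicate 2, and 10 fell and 5 rose without replicate 1.

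Kif14, Kif20a, Kif22, Kif23, Kif4, Kifc1, Kif2c and Kif21b fell in all 4 lines. For Kif20a, Kif22, Kif23 and Kif2c the call held in each line under every alternative run. Kif20a (ENSMUSG00000003779; chr18:34624613-34633277; positions from GENCODE M21 on GRCm38) had 178 and 185 CPM with APH against 281 and 279 CPM with DMSO in ATMko and 110 and 113 CPM with APH against 202 and 204 CPM with DMSO in wtATM. Kif20a in ATMINko had 123 and 130 CPM with APH against 268 and 274 CPM with DMSO. wtATMIN libraries had 144 and 154 CPM with APH against 266 and 269 CPM with DMSO. The APH libraries lay below the DMSO libraries in every line, at log2 fold changes of -0.63 ± 0.06 in ATMko, -0.87 ± 0.06 in wtATM, -1.10 ± 0.06 in ATMINko and -0.84 ± 0.06 in wtATMIN (edgeR adjusted p from 3.72e-17 to 3.09e-10). Kif23 (ENSMUSG00000032254; chr9:61915905-61946774), the motor subunit of centralspindlin, the complex that organises the midzone with Racgap1, had 96.7 and 106 CPM with APH against 151 and 141 CPM with DMSO in ATMko and 64.5 and 57.1 CPM with APH against 107 and 102 CPM with DMSO in wtATM. Kif23 in ATMINko had 59.2 and 55.2 CPM with APH against 119 and 118 CPM with DMSO. wtATMIN libraries had 131 and 131 CPM with APH against 217 and 200 CPM with DMSO. Its groups did not overlap within any line, and it fell by 0.53 ± 0.07 in ATMko, 0.77 ± 0.07 in wtATM, 1.05 ± 0.07 in ATMINko and 0.67 ± 0.06 in wtATMIN on the log2 scale (edgeR adjusted p from 2.36e-14 to 4.69e-07). Kif14 (ENSMUSG00000041498; chr1:136466343-136531511), which binds citron kinase in late cytokinesis, had 32.5 and 36.5 CPM with APH against 50.5 and 46.0 CPM with DMSO in ATMko and 29.4 and 26.4 CPM with APH against 47.5 and 45.5 CPM with DMSO in wtATM. Kif14 in ATMINko had 28.0 and 26.1 CPM with APH against 42.0 and 40.2 CPM with DMSO. wtATMIN libraries had 32.6 and 33.5 CPM with APH against 46.5 and 37.4 CPM with DMSO. It changed by -0.49 ± 0.09 in ATMko, -0.73 ± 0.09 in wtATM, -0.60 ± 0.09 in ATMINko and -0.34 ± 0.09 in wtATMIN. In wtATMIN the call was lost with the compared groups fitted alone (edgeR adjusted p = 0.0552), without DMSO replicate 1 (-0.18, edgeR adjusted p = 0.255) and without APH replicate 1 (-0.33, edgeR adjusted p = 0.075). In ATMko it was lost with the compared groups fitted alone (edgeR adjusted p = 0.055). Kif20b, a midbody motor of abscission, was called lower only in ATMINko, at -0.99 ± 0.19 (edgeR adjusted p = 0.0012), and was not called with the compared groups fitted alone (edgeR adjusted p = 0.0775).

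**Figure D2:**
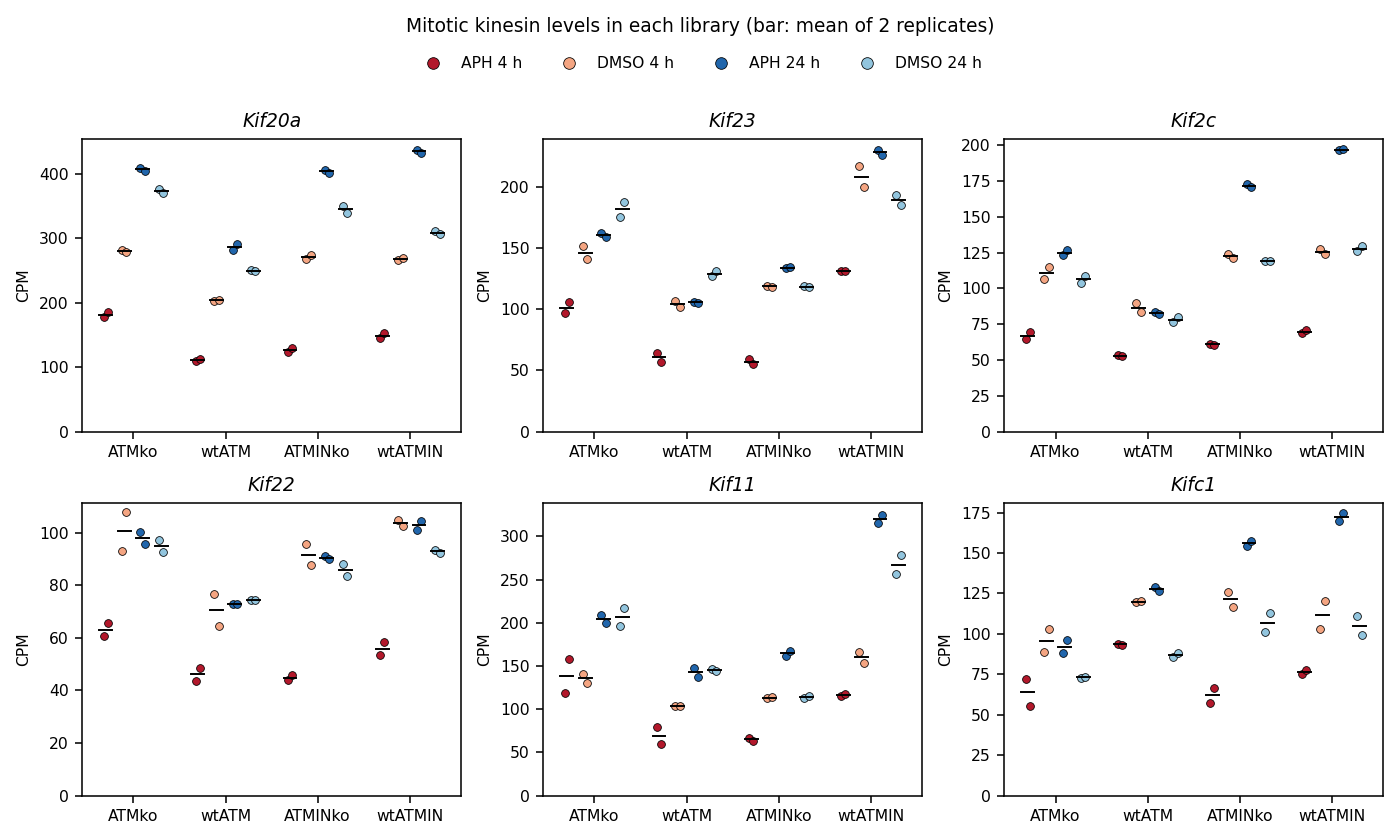
CPM of 6 mitotic kinesins in each of the 32 libraries, by line, treatment and time; points are the 2 replicates and bars their means, and the axes start at 0. At 4 h the APH points of Kif20a, Kif23, Kif2c, Kif22 and Kifc1 sit below the DMSO points in every line, and at 24 h Kifc1 sits above them in every line.

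Among the chromosome motors, Kif22 (ENSMUSG00000030677; chr7:127027729-127042471), a chromokinesin that pushes chromosome arms away from the poles, had 60.6 and 65.8 CPM with APH against 93.2 and 108 CPM with DMSO in ATMko and 43.8 and 48.4 CPM with APH against 76.6 and 64.6 CPM with DMSO in wtATM. Kif22 in ATMINko had 43.8 and 45.8 CPM with APH against 95.5 and 87.8 CPM with DMSO. wtATMIN libraries had 53.5 and 58.4 CPM with APH against 105 and 103 CPM with DMSO. All APH libraries were lower than the DMSO libraries of their line, by 0.67 ± 0.08 in ATMko, 0.61 ± 0.08 in wtATM, 1.03 ± 0.08 in ATMINko and 0.89 ± 0.08 in wtATMIN on the log2 scale (edgeR adjusted p from 3.45e-12 to 1.87e-06). Kif4 (ENSMUSG00000034311; chrX:100625737-100727214), a chromokinesin that also sets the length of the central spindle with Prc1, had 75.1 and 77.9 CPM with APH against 94.5 and 82.2 CPM with DMSO in ATMko and 76.3 and 68.2 CPM with APH against 103 and 94.7 CPM with DMSO in wtATM. Kif4 in ATMINko had 89.0 and 88.8 CPM with APH against 135 and 129 CPM with DMSO. wtATMIN libraries had 88.8 and 91.7 CPM with APH against 124 and 121 CPM with DMSO. It changed by -0.21 ± 0.07 in ATMko, -0.45 ± 0.07 in wtATM, -0.57 ± 0.07 in ATMINko and -0.44 ± 0.07 in wtATMIN. The ATMko call of Kif4 was lost without APH replicate 1 (-0.19), without APH replicate 2 (-0.24) and without DMSO replicate 1 (-0.11), and with the compared groups fitted alone (edgeR adjusted p = 0.414). Kif18b, a kinesin-8 that works with Kif2c on astral microtubules, fell in ATMko, ATMINko and wtATMIN, by 0.61 ± 0.08, 0.51 ± 0.08 and 0.38 ± 0.08, and stood at -0.24 ± 0.08 (edgeR adjusted p = 0.0752) in wtATM. Kif18a, the kinesin-8 that damps chromosome oscillations at the metaphase plate, was called in ATMINko alone, at -0.81 ± 0.17 (edgeR adjusted p = 0.000806); whether that differed from wtATMIN is given with the differences of responses.

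Of the spindle assembly motors, Kifc1 (ENSMUSG00000079553; chr17:33875659-33890661), the minus-end motor that focuses spindle poles, had 71.9 and 55.6 CPM with APH against 88.5 and 103 CPM with DMSO in ATMko and 93.9 and 93.4 CPM with APH against 120 and 120 CPM with DMSO in wtATM. Kifc1 in ATMINko had 57.5 and 66.4 CPM with APH against 126 and 117 CPM with DMSO. wtATMIN libraries had 75.1 and 77.9 CPM with APH against 103 and 121 CPM with DMSO. It fell in every line, by 0.58 ± 0.09 in ATMko, 0.36 ± 0.09 in wtATM, 0.97 ± 0.09 in ATMINko and 0.55 ± 0.09 in wtATMIN on the log2 scale, but the wtATM call was lost when any of its 4 libraries was left out (edgeR adjusted p up to 0.101). Kifc1 has a near-identical copy, Kifc5b, with 30381 reads in all libraries against 54780 for Kifc1, and how the authors' counting split reads between them is not known; Kifc5b was lower in all 4 lines as well (-0.59 ± 0.09 in ATMko, -0.27 ± 0.08 in wtATM, -0.91 ± 0.08 in ATMINko and -0.53 ± 0.08 in wtATMIN). Kif11 (ENSMUSG00000012443; chr19:37376403-37421859), the plus-end motor that separates the spindle poles, had 119 and 158 CPM with APH against 141 and 131 CPM with DMSO in ATMko and 78.8 and 59.8 CPM with APH against 104 and 103 CPM with DMSO in wtATM. Kif11 in ATMINko had 67.0 and 62.8 CPM with APH against 112 and 114 CPM with DMSO. wtATMIN libraries had 116 and 118 CPM with APH against 166 and 153 CPM with DMSO. It fell in wtATM, ATMINko and wtATMIN, by 0.57 ± 0.10, 0.80 ± 0.10 and 0.46 ± 0.09, while in ATMko replicate 2 lay above and replicate 1 below its DMSO libraries. Kif15, which can replace Kif11 in holding the spindle bipolar, was called lower in wtATM at -0.41 ± 0.10 (edgeR adjusted p = 0.00471), lost without DMSO replicate 1 or APH replicate 2, and in ATMINko at -0.24 ± 0.09 (edgeR adjusted p = 0.0456), lost without any 1 of its 4 libraries, under RLE or library size scaling, with the replicate block and with DESeq2.

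Of the microtubule depolymerases, Kif2c (ENSMUSG00000028678; chr4:117159639-117182639), which corrects wrong attachments of microtubules to kinetochores, had 64.4 and 69.8 CPM with APH against 106 and 115 CPM with DMSO in ATMko and 53.4 and 52.9 CPM with APH against 89.6 and 83.5 CPM with DMSO in wtATM. Kif2c in ATMINko had 61.5 and 60.6 CPM with APH against 124 and 121 CPM with DMSO. wtATMIN libraries had 68.6 and 71.2 CPM with APH against 127 and 124 CPM with DMSO. Its groups did not overlap, and it fell by 0.73 ± 0.06 in ATMko, 0.70 ± 0.07 in wtATM, 1.01 ± 0.06 in ATMINko and 0.85 ± 0.06 in wtATMIN on the log2 scale (edgeR adjusted p from 9.85e-15 to 7.74e-10). Kif2a, which acts at spindle poles and in neurites, and Kif24, which acts at centrioles, were called in no line at 4 h. Outside the division roles, Kif21b (ENSMUSG00000041642; chr1:136131389-136177998), a kinesin-4 that slows microtubule growth, had 11.0 and 7.91 CPM with APH against 14.8 and 14.4 CPM with DMSO in ATMko and 5.71 and 7.61 CPM with APH against 9.38 and 10.9 CPM with DMSO in wtATM. Kif21b in ATMINko had 7.08 and 6.14 CPM with APH against 12.3 and 15.2 CPM with DMSO. wtATMIN libraries had 2.92 and 2.65 CPM with APH against 8.56 and 5.98 CPM with DMSO. The groups did not overlap within a line, and it changed by -0.60 ± 0.18 in ATMko, -0.64 ± 0.20 in wtATM, -1.05 ± 0.18 in ATMINko and -1.38 ± 0.23 in wtATMIN. In wtATM that call was lost under RLE scaling (edgeR adjusted p = 0.0505), library size scaling, the replicate block, DESeq2 and 3 of 4 left-out libraries, and in ATMko under 3 of 4 left-out libraries and with the compared groups alone.

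**Figure D3:**
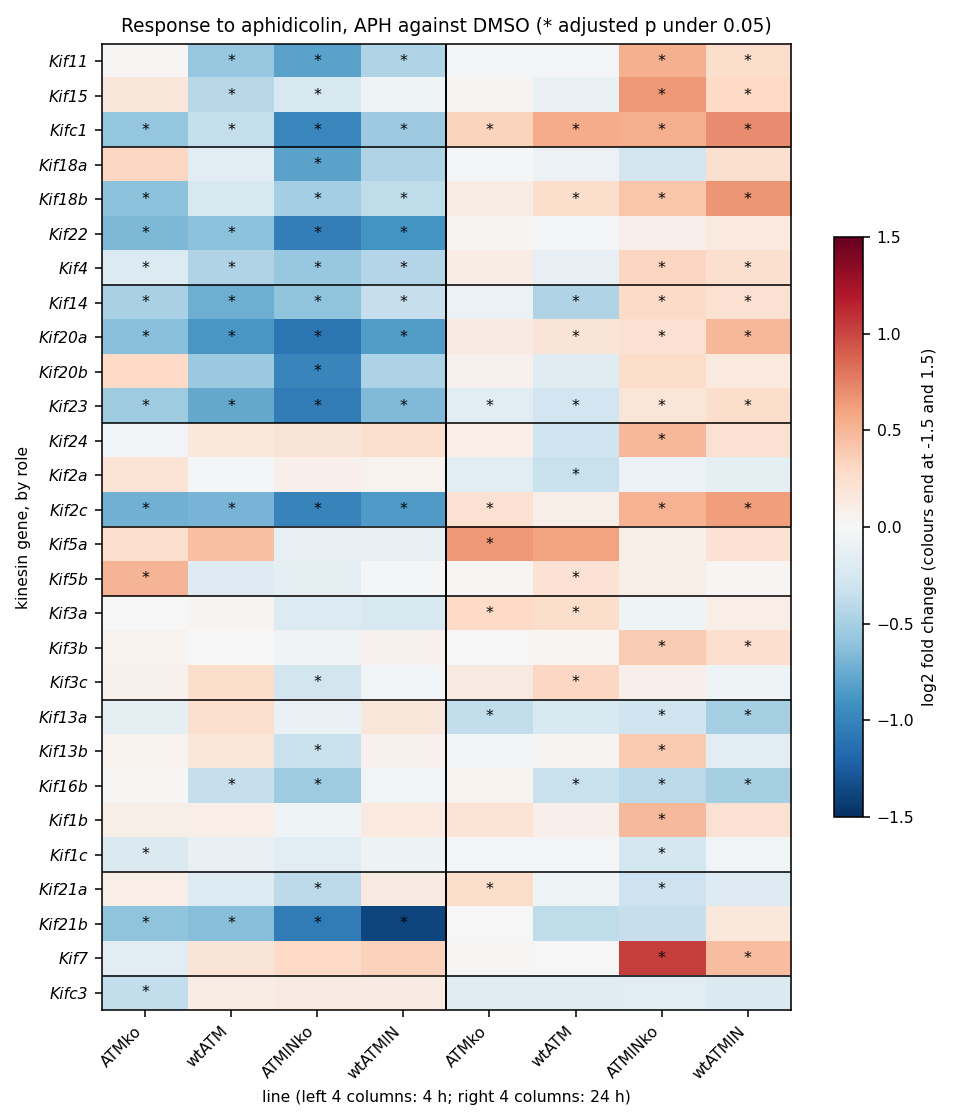
Log2 fold changes of APH against DMSO (colour) for the 28 kinesins with a mean above 5 CPM, by role from top to bottom, with 4 h in the left 4 columns and 24 h in the right 4; stars mark an adjusted p under 0.05. Most members of the mitotic roles, and Kif2c, are blue with stars at 4 h in most lines, and at 24 h most of them are red with stars in ATMINko and wtATMIN. Exceptions are Kif15, Kif18a and Kif20b, with few stars at 4 h, and Kif18a, Kif20b and Kif22, without a star at 24 h.

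Other members changed at 4 h in 1 or 2 lines. Kif26b rose in wtATM (0.83 ± 0.21) and Kif5c in wtATMIN (0.55 ± 0.16). Kif13b, Kif21a, Kif3c and Kifc2 fell in ATMINko (-0.34 ± 0.11, -0.39 ± 0.10, -0.27 ± 0.09 and -0.96 ± 0.34). None of these 6 calls held in every alternative: those of Kif5c, Kif13b and Kifc2 were lost without any 1 of their 4 libraries, Kif26b and Kif3c without 2 of 4, and Kif21a without APH replicate 2. Kif5b had 357 and 434 CPM with APH against 292 and 262 CPM with DMSO in ATMko, where it rose by 0.51 ± 0.08 (edgeR adjusted p = 3.37e-05); without APH replicate 1 the value was 0.64 (edgeR adjusted p = 3.4e-07) and without replicate 2 0.36 (edgeR adjusted p = 0.00239). In the other lines it did not pass. Kif1c and Kifc3 were called lower in ATMko, at -0.22 ± 0.07 and -0.36 ± 0.09, and neither call held without APH replicate 2 (-0.07 and -0.18). Kif16b, a motor of early endosomes, fell in ATMINko by 0.53 ± 0.09 (edgeR adjusted p = 4.34e-05) and in wtATM by 0.35 ± 0.09 (edgeR adjusted p = 0.0148), the wtATM call being lost without 3 of its 4 libraries and under library size scaling.

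Since most mitotic members fell at 4 h, the promoters of the family were read for the CHR word TTTGAA. The variant word TTCGAA and the NF-Y box word CCAAT were also searched, all on both strands. The 2 CHR words cannot match at the same bases, and overlap with CCAAT was allowed. RefSeq windows on GRCm38.p6, from 250 bases before to 50 bases after the annotated start, were given for 30 of the 38 members. Of all 32851 such windows, 17.9% hold the CHR word, 3.14% hold it within 30 bases of the start, 1.56% hold the variant and 37.4% hold the NF-Y box word. The CHR word was found for 9 of the 10 members in mitotic roles with a window, within 30 bases of the start in 8 of them, and for 4 of the 20 others, within 30 bases in 1 (Kif26b). Kif18a was the mitotic member without the word, and Kif24 held the variant. The NF-Y box word was found for 7 of the 10 and 7 of the 20. A match is a description of letters and not a measured site. The 8 mitotic promoters with the word near the start are shown with Kif18a, Kif3a and Kif1c, which lack it, from 75 bases before to 35 bases after the start, 5′ to 3′, with the CHR word, read on either strand, in capitals.
Kif11, chr19:37376307-37376416, plus strand: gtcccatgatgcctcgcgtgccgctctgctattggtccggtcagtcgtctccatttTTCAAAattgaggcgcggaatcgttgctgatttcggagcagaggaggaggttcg
Kif15, chr9:122951006-122951115, plus strand: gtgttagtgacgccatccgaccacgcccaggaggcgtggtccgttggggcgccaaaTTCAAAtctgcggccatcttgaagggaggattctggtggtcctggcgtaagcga
Kifc1, chr17:33890599-33890708, minus strand: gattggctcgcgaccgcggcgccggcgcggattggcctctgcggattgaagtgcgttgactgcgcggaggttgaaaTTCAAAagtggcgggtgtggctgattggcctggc
Kif4, chrX:100625990-100626099, plus strand: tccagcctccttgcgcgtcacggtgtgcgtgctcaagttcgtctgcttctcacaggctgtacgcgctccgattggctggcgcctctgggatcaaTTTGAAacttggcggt
Kif22, chr7:127042386-127042495, minus strand: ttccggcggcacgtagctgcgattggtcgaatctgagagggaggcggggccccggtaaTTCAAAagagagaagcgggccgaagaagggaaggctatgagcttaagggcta
Kif18b, chr11:102925090-102925199, minus strand: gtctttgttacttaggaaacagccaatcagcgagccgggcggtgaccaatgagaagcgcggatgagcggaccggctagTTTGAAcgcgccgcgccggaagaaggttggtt
Kif23, chr9:61946765-61946874, minus strand: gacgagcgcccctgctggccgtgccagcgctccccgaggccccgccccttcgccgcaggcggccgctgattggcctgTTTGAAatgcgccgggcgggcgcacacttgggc
Kif20b, chr19:34922283-34922392, plus strand: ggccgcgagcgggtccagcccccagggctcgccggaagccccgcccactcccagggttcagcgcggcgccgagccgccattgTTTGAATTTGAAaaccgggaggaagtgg
Kif18a, chr2:109280663-109280772, plus strand: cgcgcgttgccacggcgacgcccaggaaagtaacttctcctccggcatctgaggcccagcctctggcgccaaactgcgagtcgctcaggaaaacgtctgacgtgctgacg
Kif3a, chr11:53567294-53567403, plus strand: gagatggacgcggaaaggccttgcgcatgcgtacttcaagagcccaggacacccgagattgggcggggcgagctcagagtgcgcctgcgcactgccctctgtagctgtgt
Kif1c, chr11:70700473-70700582, plus strand: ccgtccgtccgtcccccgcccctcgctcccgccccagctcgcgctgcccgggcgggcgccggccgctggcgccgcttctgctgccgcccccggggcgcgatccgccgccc

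The word starts 19 bases before the annotated start in Kif11 and in Kif15 and 17 bases before it in Kif22. It begins at base 2 of the transcript in Kifc1, base 3 in Kif23, base 4 in Kif18b and base 20 in Kif4 (the first transcribed base counted as 1), and Kif20b carries it as a direct repeat from bases 8 and 14. All 8 had a negative 4 h log2 fold change in wtATM, ATMINko and wtATMIN; in ATMko, Kif11, Kif15 and Kif20b stood at 0.02 ± 0.10, 0.17 ± 0.09 and 0.30 ± 0.19, none of them called. Of the genes shown without the word, Kif18a and Kif1c also had lower mean CPM with APH in wtATM, ATMINko and wtATMIN. Kif3a did so in ATMINko and wtATMIN but not in wtATM (35.4 CPM with APH against 34.6 CPM with DMSO). Whether the word goes with the fall was not tested.

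**Figure D4:**
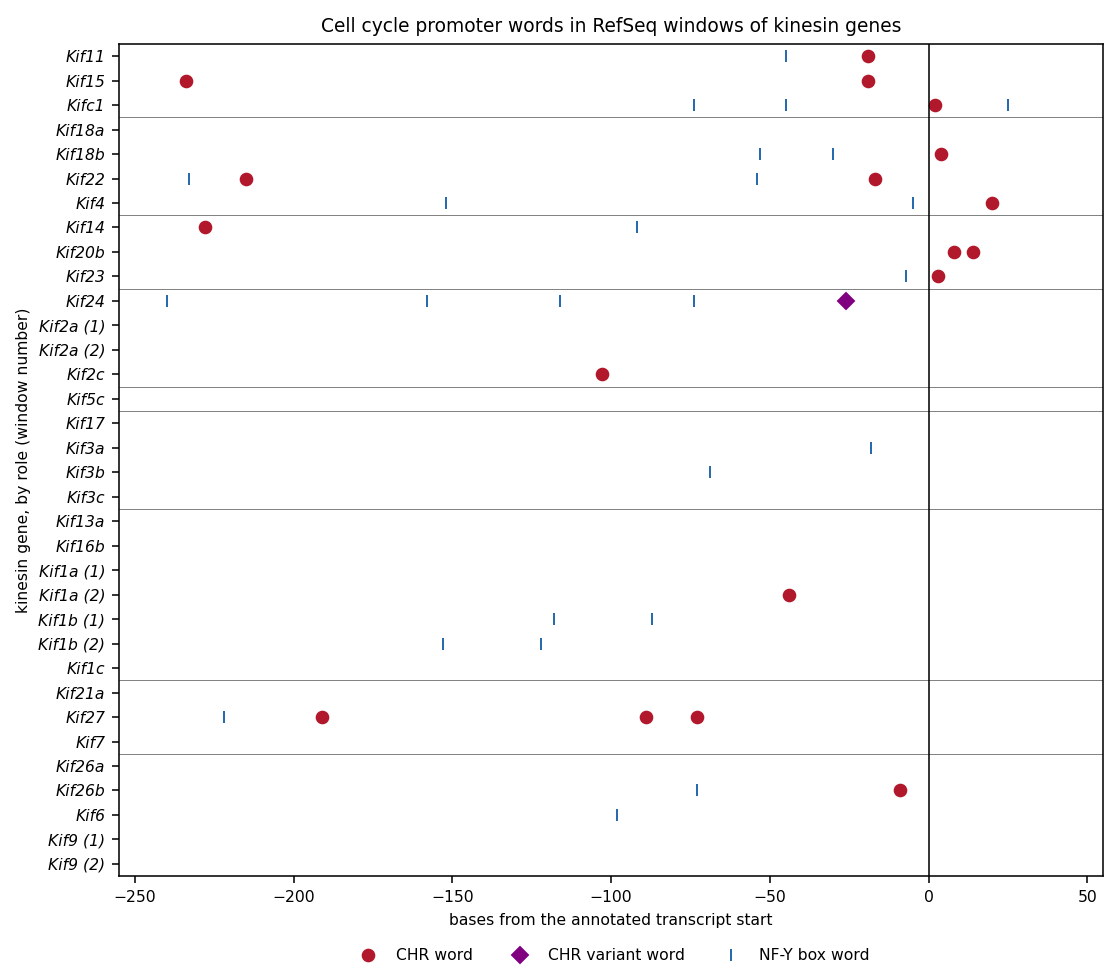
Positions of the CHR word, its variant and the NF-Y box word along the RefSeq windows of 30 kinesin genes, in bases from the annotated start (vertical line), with the genes grouped by role; numbers in brackets separate the windows of 1 gene. The CHR words of 8 mitotic members lie within 30 bases of the start.

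After 24 h of aphidicolin the division motors were no longer lower in most lines, and in the ATMIN pair most of them were higher. In ATMINko and in wtATMIN, 8 and 8 of the 11 mitotic members rose and none fell, with medians of 0.29 and 0.26 on the log2 scale beside 0.00 over all genes. In ATMko 1 rose and 1 fell (median 0.05), and in wtATM 3 rose and 2 fell (median -0.09). Whether the 2 pairs of lines differed in this was not tested. Over all 38 members, 7 rose in ATMko (background 15.7%), 6 in wtATM (background 14.4%), 16 in ATMINko (background 14.3%) and 14 in wtATMIN (background 13.6%). Lower were 2 in ATMko (background 12.2%), 4 in wtATM (background 14.3%), 5 in ATMINko (background 15.8%) and 3 in wtATMIN (background 15.3%). Of these calls in both directions, 2 of 9 in ATMko, 3 of 10 in wtATM, 12 of 21 in ATMINko and 9 of 17 in wtATMIN held in every alternative. The mitotic members that held were Kif11, Kif15, Kif18b, Kif20a, Kif4 and Kifc1 in ATMINko. In wtATMIN they were Kif18b, Kif20a, Kif23 and Kifc1. Without ATMko DMSO replicate 1, 3 of the 38 were called in ATMko at 24 h in place of 9, and without wtATM DMSO replicate 1, 5 in wtATM in place of 10.

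Kifc1 was the member that rose in all 4 lines at 24 h. It had 87.9 and 96.2 CPM with APH against 72.7 and 73.5 CPM with DMSO in ATMko and 129 and 126 CPM with APH against 85.7 and 87.9 CPM with DMSO in wtATM. Kifc1 in ATMINko had 154 and 158 CPM with APH against 101 and 113 CPM with DMSO. wtATMIN libraries had 170 and 175 CPM with APH against 111 and 99.0 CPM with DMSO. The APH libraries lay above the DMSO libraries in each line, by 0.33 ± 0.09 in ATMko, 0.56 ± 0.09 in wtATM, 0.55 ± 0.09 in ATMINko and 0.71 ± 0.09 in wtATMIN; the ATMko call was lost without DMSO replicate 1 or APH replicate 2. Its near-copy Kifc5b rose by 0.52 ± 0.08 in ATMko, 0.58 ± 0.08 in wtATM, 0.46 ± 0.08 in ATMINko and 0.82 ± 0.08 in wtATMIN. Kif20a had 409 and 404 CPM with APH against 377 and 370 CPM with DMSO in ATMko and 282 and 291 CPM with APH against 250 and 249 CPM with DMSO in wtATM. Kif20a in ATMINko had 406 and 401 CPM with APH against 350 and 340 CPM with DMSO. wtATMIN libraries had 437 and 432 CPM with APH against 310 and 307 CPM with DMSO. It rose in wtATM, ATMINko and wtATMIN by 0.20 ± 0.05, 0.23 ± 0.05 and 0.49 ± 0.05, and stood at 0.12 ± 0.05 (edgeR adjusted p = 0.0868) in ATMko. Kif2c rose in ATMko, ATMINko and wtATMIN, by 0.23 ± 0.06, 0.53 ± 0.06 and 0.62 ± 0.06, with 197 and 197 CPM with APH against 126 and 130 CPM with DMSO in wtATMIN. The call of Kif20a in wtATM was lost without APH replicate 2, and that of Kif2c in ATMko without DMSO replicate 1.

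Kif23, Kif14 and Kif21a were called in both directions. Kif21a was higher in ATMko (mean 63.9 CPM with APH against 52.8 CPM with DMSO) and lower in ATMINko (33.2 against 41.1 CPM). Neither of these Kif21a calls held in every alternative. Kif23 had 162 and 159 CPM with APH against 175 and 187 CPM with DMSO in ATMko and 106 and 105 CPM with APH against 127 and 131 CPM with DMSO in wtATM. Kif23 in ATMINko had 134 and 134 CPM with APH against 119 and 118 CPM with DMSO. wtATMIN libraries had 230 and 226 CPM with APH against 193 and 185 CPM with DMSO. It fell in ATMko and wtATM, by 0.17 ± 0.06 and 0.29 ± 0.07, and rose in ATMINko and wtATMIN, by 0.18 ± 0.07 and 0.27 ± 0.06; the calls in ATMko and ATMINko were lost without 3 and all 4 of their left-out libraries. Kif14 fell in wtATM by 0.45 ± 0.09 (edgeR adjusted p = 0.000212) and was called higher in ATMINko and wtATMIN at 0.29 ± 0.09 and 0.23 ± 0.09; the ATMINko call was lost without 3 of its 4 libraries in turn and the wtATMIN call without any 1 of its 4. Kif11 and Kif15 rose in ATMINko, by 0.53 ± 0.09 (edgeR adjusted p = 5.9e-05) and 0.65 ± 0.08 (edgeR adjusted p = 1.51e-07), and in wtATMIN by 0.26 ± 0.09 and 0.30 ± 0.08, where single left-out libraries ended both calls. In ATMINko Kif11 had 162 and 168 CPM with APH against 113 and 115 CPM with DMSO.

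Among the transport and ciliary kinesins, Kif7, the kinesin-4 that works in Hedgehog signalling at the tip of the primary cilium, rose in ATMINko and wtATMIN. It had 15.8 and 15.7 CPM with APH against 7.29 and 8.02 CPM with DMSO in ATMINko, and 15.7 and 14.8 CPM with APH against 11.5 and 10.5 CPM with DMSO in wtATMIN. The rises were 1.04 ± 0.13 (edgeR adjusted p = 1.32e-07) and 0.47 ± 0.12 (edgeR adjusted p = 0.00339), while ATMko and wtATM both stood at 0.01. The endosomal motors fell: Kif13a in ATMko, ATMINko and wtATMIN (-0.37 ± 0.10, -0.30 ± 0.09 and -0.50 ± 0.10) and Kif16b in wtATM, ATMINko and wtATMIN (-0.34 ± 0.09, -0.41 ± 0.10 and -0.49 ± 0.09). The calls of Kif13a in ATMINko and of Kif16b in wtATM and ATMINko were lost without 2, 1 and 1 of their 4 libraries in turn, that of Kif13a also under library size scaling. Kif1a, a carrier of synaptic vesicle precursors in neurons, had 4.95 and 5.02 CPM with APH against 1.38 and 1.42 CPM with DMSO in ATMko, a rise of 1.83 ± 0.26 (edgeR adjusted p = 1.7e-06). In wtATMIN it rose by 2.37 ± 0.38 (edgeR adjusted p = 9.6e-06). Among the kinesin-2 motors the calls were Kif3b in ATMINko and wtATMIN (0.38 ± 0.07 and 0.25 ± 0.07), Kif3a in ATMko and wtATM (0.30 ± 0.08 and 0.26 ± 0.09), Kif3c in wtATM (0.31 ± 0.09) and Kif17 in ATMko, all of them higher. Kif17, a motor of ciliary and dendritic transport, had 1.01 and 1.11 CPM with APH against 0.240 and 0.258 CPM with DMSO in ATMko (2.06 ± 0.67 (edgeR adjusted p = 0.0195)), a low level. Of these kinesin-2 calls, that of Kif3b in ATMINko held in every alternative; those of Kif17 in ATMko and Kif3a in wtATM were lost without any 1 of their 4 libraries, and Kif3a in ATMko, Kif3b in wtATMIN and Kif3c in wtATM without 2 of 4 each.

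The change in response between the 2 times was tested as a difference of log2 fold changes, 24 h minus 4 h. It was positive and called for 7 of the 11 mitotic members in ATMko, 7 in wtATM, 10 in ATMINko and 10 in wtATMIN, and negative and called for none. Over all 38 members it was called positive for 9 in ATMko (background 12.1%), 9 in wtATM (background 7.87%), 17 in ATMINko (background 10.8%) and 14 in wtATMIN (background 9.12%). It was called negative for 2, 2, 1 and 2 (backgrounds 9.89%, 7.24%, 10.3% and 9.44%). Kif18b, Kif20a, Kif22, Kif2c and Kifc1 were called positive in every line under every alternative run. Without ATMko APH 4 h replicate 1, 6 mitotic members were called positive in ATMko and 1 negative (Kif18a, -0.71); without replicate 2 there were 7 and 0. Over all 38 the numbers were 12 and 3 without replicate 1, and 10 and 1 without replicate 2.

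In ATMko, most kinesins that differed were higher than in wtATM: 19 in APH 4 h (background 30.3%), 16 in DMSO 4 h (background 27.3%), 19 in APH 24 h (background 31.5%), 17 in DMSO 24 h (background 29.5%). Lower were 11 in APH 4 h (background 28.6%), 7 in DMSO 4 h (background 27.9%), 8 in APH 24 h (background 29.9%), 10 in DMSO 24 h (background 29.8%). Higher in all 4 conditions were 16 members: the mitotic motors Kif11, Kif15, Kif20a, Kif20b, Kif22 and Kif23, the depolymerases Kif2a and Kif2c, the kinesin-1 and kinesin-3 motors Kif5a, Kif5c, Kif1a and Kif1b, the kinesin-2 motors Kif3a and Kif3c, and Kif21b and Kifc3. Lower in all 4 were Kif13b, Kif16b, Kif21a, Kif26a and Kifc1. The share of all genes tested that were called in 1 direction in all 4 conditions was not counted. Of the 16, 11 kept all 4 calls in every alternative; a call was lost with APH at 4 h for Kif1b, Kif21b and Kif2c, with DMSO at 4 h for Kif1b, Kif20b, Kif21b and Kif2a, and with DMSO at 24 h for Kif20b. Of the 5 that were lower, Kif21a kept all 4; a call was lost with APH at 4 h for Kif26a, with DMSO at 4 h for Kif26a and Kifc1, with APH at 24 h for Kif16b, and with DMSO at 24 h for Kif13b and Kifc1. Without APH 4 h replicate 1 of ATMko, 17 members were higher and 11 lower with APH at 4 h, and Kif21b (0.26, edgeR adjusted p = 0.411), Kif1b (0.37, edgeR adjusted p = 0.0561) and Kif26a (edgeR adjusted p = 0.0891) were not called. Without its replicate 2, 17 were higher and 8 lower, and Kif26a was again not called (edgeR adjusted p = 0.0503). Over the 11 mitotic members the median difference was 0.59 with APH at 4 h, 0.39 with DMSO at 4 h, 0.43 with APH at 24 h and 0.35 with DMSO at 24 h, beside -0.00 to 0.03 over all genes. The summed level of the 12 cell cycle markers was 2930 to 3456 CPM in ATMko against 2145 to 2900 CPM in wtATM; its part in the mitotic members' difference was not tested.

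Kif5c (ENSMUSG00000026764; chr2:49619298-49774778), a kinesin-1 heavy chain used mainly by neurons, had a lowest, median and highest level of 5.92, 8.33 and 9.07 CPM over the 8 libraries of ATMko, against 0.0802, 0.180 and 0.455 CPM in wtATM. No library of the 2 lines overlapped, and the log2 difference was 4.62 to 5.75 over the 4 conditions (edgeR adjusted p from 8.73e-16 to 2.33e-14). In wtATM Kif5c was covered by 25 reads in all 8 libraries, so depth limits the size of this difference. Kif5a (ENSMUSG00000074657; chr10:127225696-127263348), its neuronal relative, lay at 8.33, 10.2 and 18.2 CPM in ATMko against 0.481, 1.31 and 3.06 CPM in wtATM, a difference of 2.77 to 3.34 (edgeR adjusted p from 1.71e-13 to 1.75e-11). Kif1a lay at 1.38, 3.19 and 5.02 CPM in ATMko against 0, 0.0727 and 0.177 CPM in wtATM, where it was covered by 10 reads in all 8 libraries, so no fold is given. Kif5b, the general kinesin-1 heavy chain, lay at 262, 401 and 437 CPM in ATMko against 188, 271 and 365 CPM in wtATM and was called higher in 3 of 4 conditions.

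The other members called in all 4 conditions differed by less. Among the division motors, Kif15 had a median of 86.5 CPM in ATMko against 50.3 CPM in wtATM, a difference of 0.55 to 1.31 on the log2 scale over the 4 conditions. Kif20a had a lowest, median and highest level of 178, 326 and 409 CPM in ATMko against 110, 227 and 291 CPM in wtATM (0.46 to 0.71). Kif20b lay at 76.3, 141 and 177 CPM in ATMko against 27.4, 76.6 and 117 CPM in wtATM (0.55 to 1.43), Kif22 at 60.6, 94.5 and 108 CPM in ATMko against 43.8, 72.9 and 76.6 CPM in wtATM (0.35 to 0.51) and Kif2c at 64.4, 108 and 127 CPM in ATMko against 52.9, 81.1 and 89.6 CPM in wtATM (0.33 to 0.59). Each range holds both times and treatments. Of the ciliary transport motors, Kif3a lay at 44.4, 53.6 and 70.6 CPM in ATMko against 31.9, 35.4 and 39.0 CPM in wtATM (0.44 to 0.86) and Kif3c at 38.1, 40.9 and 44.7 CPM in ATMko against 20.3, 22.8 and 27.3 CPM in wtATM (0.69 to 0.96). Kif1b, a carrier of mitochondria and synaptic vesicle precursors, lay at 85.5, 103 and 120 CPM in ATMko against 44.7, 68.7 and 83.5 CPM in wtATM (0.46 to 0.92), Kif2a at 87.6, 118 and 137 CPM in ATMko against 70.0, 77.0 and 99.9 CPM in wtATM (0.30 to 0.62) and Kif21b at 7.91, 13.7 and 15.0 CPM in ATMko against 4.09, 7.10 and 10.9 CPM in wtATM (0.51 to 1.34). Lower in ATMko were the kinesin-3 motors Kif13b, at 5.67, 8.85 and 11.1 CPM in ATMko against 10.1, 12.8 and 17.8 CPM in wtATM (-0.73 to -0.56), and Kif16b, at 22.7, 24.6 and 25.7 CPM in ATMko against 28.1, 34.7 and 45.3 CPM in wtATM (-0.78 to -0.26). Kifc1 was lower in ATMko as well, at 55.6, 80.7 and 103 CPM in ATMko against 85.7, 107 and 129 CPM in wtATM (-0.55 to -0.25).

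In ATMINko the same 2 neuronal heavy chains were low and in its wild type high. Kif5c lay at 0.190, 0.445 and 0.943 CPM in ATMINko against 5.09, 9.34 and 16.5 CPM in wtATMIN, a difference of -4.58 to -3.85 (edgeR adjusted p from 1.54e-16 to 2.86e-12). Kif5a lay at 1.24, 2.17 and 2.85 CPM in ATMINko against 10.1, 12.4 and 17.0 CPM in wtATMIN, a difference of -2.81 to -2.45 (edgeR adjusted p from 3.15e-13 to 1.79e-10). The 11 neural markers listed summed to 72.6 to 98.3 CPM in ATMko against 23.4 to 33.0 CPM in wtATM, and to 57.5 to 86.3 CPM in ATMINko against 58.1 to 290 CPM in wtATMIN. Tubb3, a neuronal tubulin, went with Kif5a and Kif5c, at 24.0 to 36.5 CPM in ATMko against 5.74 to 11.6 in wtATM and 2.99 to 4.65 CPM in ATMINko against 17.5 to 47.2 in wtATMIN. Map2, a protein of dendritic microtubules, lay at 6.54 to 12.6 CPM in ATMko against 0 to 0.0581 in wtATM, and at 25.7 to 58.8 CPM in ATMINko against 13.6 to 27.2 in wtATMIN. Gap43, a protein of growing axons, lay at 29.3 to 62.3 CPM in ATMko against 16.1 to 21.6 in wtATM, and at 6.87 to 32.2 CPM in ATMINko against 6.20 to 128 in wtATMIN. Stmn2, a neuronal stathmin, stayed under 1 CPM in ATMko and wtATM and lay at 0.0524 to 10.1 CPM in ATMINko against 9.57 to 96.8 in wtATMIN. Syp, of synaptic vesicles, reached 2.58 CPM in ATMko and stayed under 1 CPM in the other lines. The other 6 of the list, Snap25, Nefl, Nefm, Syt1, Sox10 and Gfap, stayed under 1 CPM in every library, and Nefl had no read in wtATM or wtATMIN. Kif1a overlapped between the lines of this pair, at 0.0597, 0.894 and 2.62 CPM in ATMINko against 0.220, 0.989 and 1.65 CPM in wtATMIN. Whether any neural cells were present, and what part they had in the kinesin differences, was not tested.

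Kif26a (ENSMUSG00000021294; chr12:112146208-112181747), an atypical kinesin without motor activity that is known from the mouse enteric nervous system, had no read in any of the 8 libraries of ATMko or the 8 of ATMINko, against 60 reads in wtATM and 21 in wtATMIN. Set against 3 counts over the 8 libraries of a line, the level was at least 18.3-fold lower in ATMko than in wtATM and at least 6.64-fold lower in ATMINko than in wtATMIN. These are low levels throughout, with a mean of 0.472 CPM in wtATM and 0.148 CPM in wtATMIN, and the bounds cover counting error only. Its relative Kif26b lay at 1.22, 3.85 and 8.96 CPM in ATMko against 2.90, 5.44 and 12.2 CPM in wtATM, and at 0.294, 3.05 and 6.01 CPM in ATMINko against 0.160, 1.14 and 1.76 CPM in wtATMIN.

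**Figure D5:**
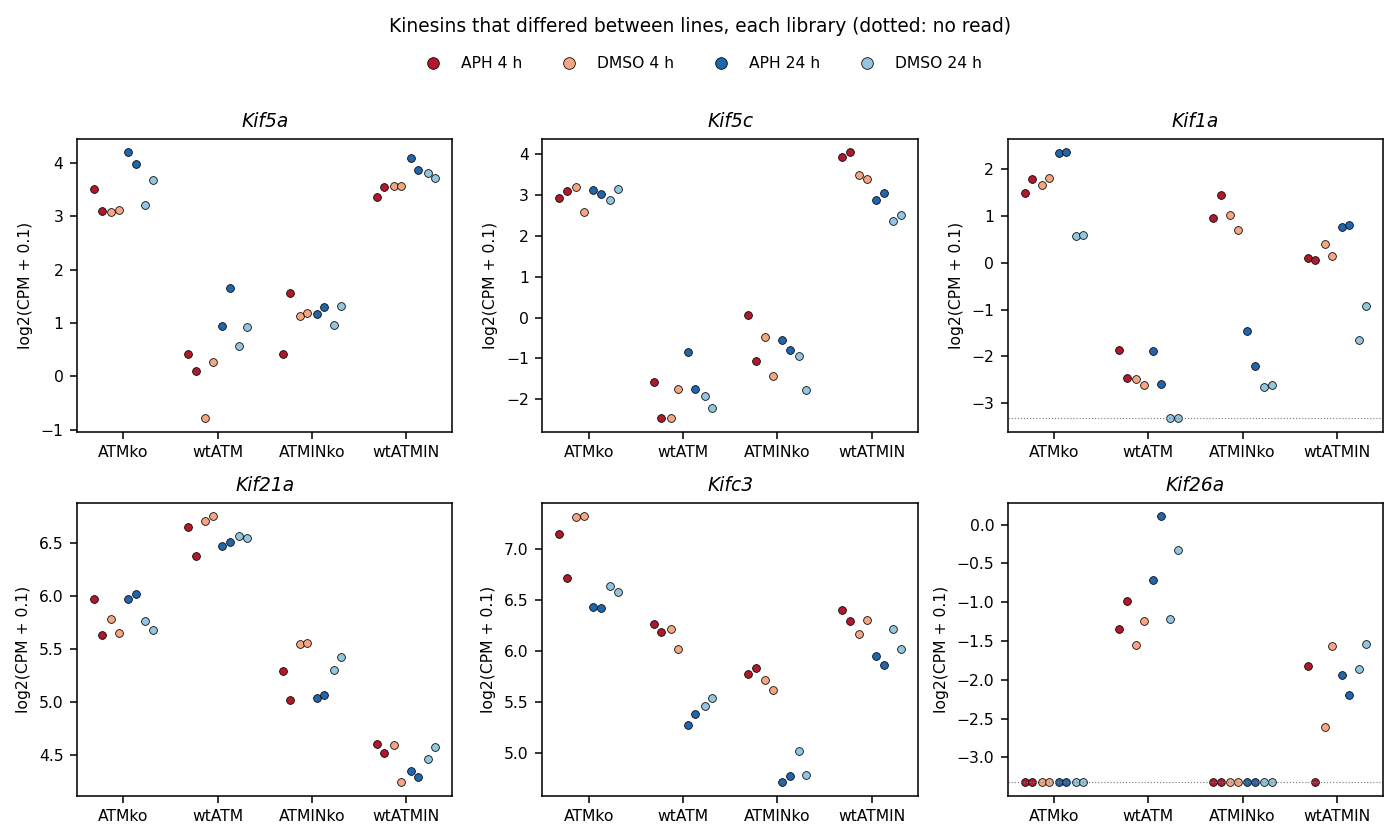
Log2(CPM + 0.1) of 6 kinesins in each of the 32 libraries by line, treatment and time; the dotted line marks libraries without a read. Kif5a and Kif5c are high in ATMko and wtATMIN and low in wtATM and ATMINko, Kif21a shows the opposite order within each pair, and Kif26a has no read in ATMko or ATMINko.

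In ATMINko, these numbers of kinesins were higher than in wtATMIN: 8 in APH 4 h (background 19.8%), 9 in DMSO 4 h (background 21.9%), 5 in APH 24 h (background 23.8%), 5 in DMSO 24 h (background 23.4%). Lower were 16 in APH 4 h (background 22.3%), 9 in DMSO 4 h (background 23.0%), 18 in APH 24 h (background 26.8%), 19 in DMSO 24 h (background 26.2%). Lower in all 4 conditions were Kif11, Kif18b, Kif23, Kif1c, Kif5a, Kif5c and Kifc3, and higher in all 4 were Kif21a and Kif5b. Kif11 lay at 62.8, 113 and 168 CPM in ATMINko against 116, 212 and 325 CPM in wtATMIN (log2 difference -1.23 to -0.50, edgeR adjusted p from 1.24e-12 to 5.34e-05), and at 119, 177 and 217 CPM in ATMko against 59.8, 121 and 148 CPM in wtATM (0.39 to 0.99, edgeR adjusted p from 4.65e-10 to 0.000844). Kif23 lay at 55.2, 118 and 134 CPM in ATMINko against 131, 196 and 230 CPM in wtATMIN (-1.20 to -0.68), and at 96.7, 155 and 187 CPM in ATMko against 57.1, 106 and 131 CPM in wtATM (0.49 to 0.73). Kifc3, a minus-end motor of cell junctions and the Golgi, lay at 26.1, 40.7 and 57.0 CPM in ATMINko against 58.2, 73.1 and 84.8 CPM in wtATMIN (-1.22 to -0.55), and at 85.5, 102 and 160 CPM in ATMko against 38.5, 55.5 and 76.7 CPM in wtATM (0.73 to 1.21). Kif18b lay at 38.7, 52.8 and 67.2 CPM in ATMINko against 62.6, 84.6 and 140 CPM in wtATMIN (-1.08 to -0.57), Kif1c at 187, 283 and 397 CPM in ATMINko against 289, 380 and 499 CPM in wtATMIN (-0.63 to -0.30) and Kif5b, in the other direction, at 252, 290 and 315 CPM in ATMINko against 206, 218 and 232 CPM in wtATMIN (0.33 to 0.44). In all, 5 members (Kif11, Kif23, Kif5a, Kif5c and Kifc3) were called higher in ATMko and lower in ATMINko, each against its own wild type in all 4 conditions. Kif21a (ENSMUSG00000022629; chr15:90933276-91049948), a kinesin-4 that limits microtubule growth, was the 1 member with the opposite pattern, at 49.7, 54.8 and 65.1 CPM in ATMko against 83.0, 94.5 and 108 CPM in wtATM, and 32.4, 39.2 and 47.0 CPM in ATMINko against 18.9, 22.4 and 24.3 CPM in wtATMIN. No member was called in the same direction in all 4 conditions in both knock-outs. The share of all genes tested with each of these patterns was not counted, so they are not shown to be particular to kinesins.

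The 2 wild-type lines also differed. In wtATM against wtATMIN, 8 members were higher with DMSO at 4 h (background 28.4%) and 6 at 24 h (background 30.2%), and 18 and 23 were lower (backgrounds 28.8% and 31.5%). At both times Kif13a, Kif16b, Kif21a, Kif26b, Kif5b and Kif7 were higher in wtATM, and 16 members were lower, among them the division motors Kif11, Kif15, Kif18b, Kif20a, Kif22, Kif23 and Kif4, the depolymerase Kif2c, and Kif5a, Kif5c and Kif1a. Kif5c differed by -6.16 to -5.16 and Kif21a by 2.05 to 2.30 between wtATM and wtATMIN.

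The response to aphidicolin was then compared between each knock-out and its wild type, as the difference of their log2 fold changes. At 4 h, 4 of the 38 members had a higher response in ATMko than in wtATM (Kif5b, Kif11, Kif15 and Kif20a; background 6.02%) and 2 a lower one (Kif18b and Kifc3; background 5.35%). Kif5b differed by 0.70 ± 0.12 (edgeR adjusted p = 0.000483), Kif11 by 0.59 ± 0.14 (edgeR adjusted p = 0.00723) and Kif15 by 0.58 ± 0.13 (edgeR adjusted p = 0.00479). None of the 6 held in every alternative. With the compared groups fitted alone 0 members were called, and without ATMko DMSO replicate 2, 2 were. Without ATMko APH replicate 2, 2 members were called (Kif5b, 0.54, edgeR adjusted p = 0.00212, and Kif21a, 0.44, edgeR adjusted p = 0.0454), and without APH replicate 1, 14. At 24 h the response of no member was called different between ATMko and wtATM by edgeR or by DESeq2, and 5 members had an unadjusted edgeR p under 0.05, all with a higher response in ATMko. Of all genes tested, 9.68% had such an unadjusted p with a higher response and 5.78% with a lower one, and 2.68% and 1.23% were called. Kif23 had a lower 4 h response in ATMINko than in wtATMIN, at -0.38 ± 0.09 (edgeR adjusted p = 0.0393, background 0.325%). No member was called with a higher one (background 0.346%). At an unadjusted edgeR p under 0.05, 8 of the 38 members had a lower response and 0 a higher one. Over all genes tested the shares at that threshold were 5.16% lower and 4.29% higher. The call of Kif23 was lost without 7 of the 8 libraries in turn. For Kif18a the difference at 4 h between ATMINko and wtATMIN was -0.36 ± 0.24 (edgeR adjusted p = 0.722) and for Kif20b -0.53 ± 0.27 (edgeR adjusted p = 0.582). At 24 h Kif13b, a kinesin-3 that binds the scaffold Dlg1, had a higher response in ATMINko, by 0.54 ± 0.15 (edgeR adjusted p = 0.0429), where the background was 1.01% for a higher response and 1.42% for a lower one. It had 20.2 and 21.4 CPM with APH against 15.0 and 16.8 CPM with DMSO in ATMINko, and 28.2 and 29.2 CPM with APH against 31.3 and 32.7 CPM with DMSO in wtATMIN. The call was lost without any 1 of the 8 libraries.

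Genes that work with the kinesins were counted from lists chosen with the design. Of 10 partners of mitotic kinesins, 6, 8, 9 and 7 fell at 4 h in ATMko, wtATM, ATMINko and wtATMIN, and 1, 0, 0 and 1 rose; over all genes tested 15.4%, 2.76%, 10.9% and 7.75% were called lower and 14.0%, 2.82%, 9.48% and 7.25% higher. Prc1, the midzone bundler that recruits Kif4, changed by -0.60 ± 0.07, -0.69 ± 0.07, -0.95 ± 0.07 and -0.85 ± 0.07 in that order of lines, and Racgap1, the partner of Kif23, by -0.38 ± 0.05, -0.59 ± 0.05, -0.96 ± 0.05 and -0.72 ± 0.05. At 24 h, 1, 0, 6 and 7 rose and 2, 4, 0 and 0 fell, beside backgrounds of 15.7%, 14.4%, 14.3% and 13.6% for a rise and 12.2%, 14.3%, 15.8% and 15.3% for a fall. Aurkb, the kinase of the passenger complex, was at -0.21 ± 0.07, -0.19 ± 0.07, 0.50 ± 0.07 and 0.49 ± 0.07. At 4 h, 5, 6, 8 and 7 of the 12 cell cycle markers fell and 3, 2, 4 and 3 rose in the same lines. Plk1, the mitotic kinase, fell by 1.34 ± 0.07, 1.20 ± 0.07, 1.63 ± 0.07 and 1.32 ± 0.07 on the log2 scale, and Ccne1, the cyclin of the G1/S transition, rose by 0.59 ± 0.07 in ATMko, 0.92 ± 0.08 in wtATM, 1.595 ± 0.08 in ATMINko and 1.14 ± 0.08 in wtATMIN. At 24 h the 12 cell cycle markers summed to 3403 and 3367 CPM with APH against 3330 and 3456 CPM with DMSO in ATMko. In wtATM the sums were 2625 and 2532 CPM with APH against 2900 and 2879 CPM with DMSO. ATMINko had 3708 and 3599 CPM with APH against 2824 and 2830 CPM with DMSO. For wtATMIN they were 4174 and 4124 CPM with APH against 3528 and 3601 CPM with DMSO. What part a shift of cells between phases has in the kinesin changes was not tested.

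The lists of the transport side were counted in the same way. Of 10 tested partners of transport kinesins (12 listed), those that fell at 4 h numbered 3, 1, 4 and 2, and those that rose 2, 0, 1 and 0. At 24 h the numbers were 2, 2, 2 and 2 for a fall and 2, 2, 4 and 3 for a rise. Of 17 tested genes of cytoplasmic dynein and dynactin (18 listed), the motor complex that walks the other way along microtubules, 5, 1, 2 and 3 were called lower at 4 h and 4, 0, 0 and 0 higher. At 24 h none of them fell in any line and 6, 8, 5 and 2 rose, with medians of 0.07, 0.16, 0.12 and 0.08. The backgrounds are those given with the partners of mitotic kinesins. At 4 h the ATMko counts of these lists rest on the 2 APH libraries that stand apart. So do those of the mitotic partners and the cell cycle markers. For these lists no counts without either library are given.

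Counts of some members may hold reads of other genes, since the strand setting of the counting is not given in the sources used here. Kif20a overlaps Cdc23, Kif4 overlaps Pdzd11, Kif18a overlaps Mettl15, Kif7 overlaps Ticrr, Kif2a overlaps Dimt1, Kif17 overlaps Sh2d5 and Kifc2 overlaps Cyhr1. The pseudogene copies Kif22-ps and Kif4-ps held 11 and 34 reads in all libraries, against 42176 for Kif22 and 53984 for Kif4. In the authors' deposited table for wtATMIN, APH against DMSO at 4 h, Kif20a has a log2 fold change of -0.81 and an adjusted p of 7.98e-31, and of the 35 members it lists 13 have an adjusted p under 0.05, 1 higher and 12 lower. At 24 h the authors' deposited table for that comparison lists 37 members, of which 15 were higher and 3 lower at that threshold.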

How the data were processed

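The deposited count table holds raw whole-number read counts per gene for 32 libraries of total RNA (9321329 to 21020662 reads, median 16174639), as the authors counted them. TopHat2 2.0.13, Bowtie2 2.4.0, the build mm10 and DESeq2 1.6.3 are named, with no order, per the submitters' processing notes; the counting tool, strand and annotation release are not given in the sources used here. The authors' 10 deposited comparison tables hold a log2 fold change and an adjusted p-value for each gene, per the file headers. Their AT and UT columns were read as APH and DMSO; 120 per-sample columns in them were not used.

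Here, symbols came from those tables (16476 genes) and otherwise from GENCODE M21 (21380), leaving 1161 without one. Genes were filtered by group, scaled by TMM and fitted in edgeR 4.0.16 (R 4.3.3) with its quasi-likelihood test on 16 groups, 26 comparisons, Benjamini-Hochberg adjustment over all 18484 genes in each and calls at adjusted p under 0.05 (common BCV 0.0643). The fit was tested on simulated data. RPKM used the union of exons, with 2 other gene lengths as alternatives. Alternatives were RLE or library size scaling, no filter, a replicate block, the compared groups alone, DESeq2 1.42.0 and leaving out each of 32 libraries. The RPKM length given by the authors was added after the data were seen. Genes in the text are those called in all lines, in all conditions of a knock-out or in a response difference, and the highest of each role; Kif7, Kif13a and others outside that rule were chosen after their values were seen. Members and lists were chosen with earlier results of these data known. The floor was 3 counts per line of 8 libraries, and it and the CPM of single libraries carry counting error only.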

Additional observations from a re-analysis of the deposited data

Results flagged for a closer look

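The response to aphidicolin differed between the 2 times, by a test of the difference itself (24 h minus 4 h, log2, edgeR adjusted p under 0.05 over all genes), for the following members. In ATMko they were Kif1a at 1.94, Kif2c at 0.96, Kifc1 at 0.91, Kif20a at 0.75, Kif18b at 0.73, Kif22 at 0.72, Kif14 at 0.40, Kif23 at 0.36, Kif4 at 0.33, Kif2a at -0.37, Kif5b at -0.49. In wtATM they were Kif20a at 1.07, Kifc1 at 0.91, Kif2c at 0.79, Kif22 at 0.59, Kif11 at 0.55, Kif18b at 0.51, Kif23 at 0.48, Kif5b at 0.41, Kif4 at 0.33, Kif13a at -0.46, Kif26b at -1.10. In ATMINko they were Kifc2 at 1.59, Kif2c at 1.53, Kifc1 at 1.52, Kif11 at 1.33, Kif20a at 1.32, Kif20b at 1.27, Kif23 at 1.23, Kif22 at 1.11, Kif18b at 0.92, Kif4 at 0.90, Kif14 at 0.89, Kif15 at 0.88, Kif7 at 0.75, Kif13b at 0.72, Kif1b at 0.55, Kif3b at 0.43, Kif3c at 0.35, Kif26b at -1.79. In wtATMIN they were Kif1a at 2.59, Kif21b at 1.54, Kif2c at 1.47, Kif20a at 1.34, Kifc1 at 1.26, Kif18b at 1.05, Kif22 at 1.04, Kif23 at 0.93, Kif11 at 0.72, Kif18a at 0.69, Kif4 at 0.69, Kif14 at 0.57, Kif15 at 0.36, Kif3a at 0.34, Kif16b at -0.45, Kif13a at -0.67. A positive value means a higher response at 24 h than at 4 h.

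The response also differed between a knock-out and its wild type. At 4 h in ATMko minus wtATM the members were Kif5b at 0.70, Kif11 at 0.59, Kif15 at 0.58, Kif20a at 0.25, Kif18b at -0.37, Kifc3 at -0.47. At 4 h in ATMINko minus wtATMIN it was Kif23 at -0.38, and at 24 h Kif13b at 0.54. None of these 8 differences between lines held in every alternative, and those of the ATM pair number 6 over all libraries, 2 without ATMko APH replicate 2 at 4 h and 14 without its replicate 1.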

How the results depend on the processing

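Of 425 calls among 988 pairs of a member and a comparison, 283 held in every alternative, 136 were lost without some library and none changed direction. RLE scaling lost 5 and gained 1, library size alone lost 22 and gained 20, no filter lost 23 and gained 26, the compared groups alone lost 29 and gained 40, and DESeq2 lost 24 and gained 6. The replicate block lost 5, gained 0 and reversed 0. Replicate numbers did not pair the libraries in 1 consistent way: over 120 pairs of groups the correlation of deviations ran from -0.434 to 0.379 (median 0.02), with 17 over 0.1 and 20 under -0.1. Some pairs of groups thus shared deviations, with either sign, and the source of this was not tested. Counts of called members that moved by over 1.5 times follow. For the difference of the 4 h response between ATMINko and wtATMIN (1 member), RLE scaling, library size and the compared groups alone gave 0, no filter 3, DESeq2 2, and leaving out 1 library 0 to 2. For that at 24 h (1 member), library size, the replicate block and every left-out library gave 0, no filter 2 and the compared groups alone 8. For ATMko minus wtATM at 4 h (6 members), the compared groups alone gave 0 and leaving out 1 library 2 to 14. For ATMko the compared groups alone gave 7 in place of 12 at 4 h and 7 in place of 11 for 24 h minus 4 h. Leaving out 1 library gave 3 to 6 in place of 9 in ATMko at 24 h (lowest without DMSO replicate 1), 5 to 9 in place of 10 in wtATM at 24 h (lowest without DMSO replicate 1), 11 to 13 in place of 17 in wtATMIN at 24 h (lowest without DMSO replicate 1), and 7 to 12 in place of 11 in wtATM for 24 h minus 4 h (lowest without APH 4 h replicate 2). Leaving out a library leaves its group with 1, assumed to vary like the other groups. The cause of these changes was not tested. Kinesins with 0 to 3 reads in a line are given as levels or bounds, since depth limits their folds.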

Other observations

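Without aphidicolin, 3 kinesins had levels that did not overlap between the 8 DMSO libraries at 4 h and the 8 at 24 h, over all lines together, and the other 35 overlapped. The share of all genes tested that separate in this way was not counted, so these numbers are no result about kinesins as a family. Kif18a had a lowest, median and highest level of 14.3, 17.8 and 25.7 CPM at 4 h and 33.5, 38.7 and 41.5 CPM at 24 h. Kif20b had 54.1, 86.9 and 94.1 CPM at 4 h and 106, 126 and 169 CPM at 24 h. Kif1c, a kinesin-3 motor, was lower at 24 h, with 388, 441 and 514 CPM at 4 h and 226, 255 and 303 CPM at 24 h. These 3 were picked after their values were seen, and no test was made, since the study's comparisons are within a time. What else differed between the cultures of the 2 times is not given in the sources used here. The same 3 genes also differed between the 2 ATMko libraries with APH at 4 h. From replicate 1 to replicate 2, Kif18a went from 14.9 to 25.5 CPM and Kif20b from 82.6 to 124 CPM. Kif1c went from 387 to 307 CPM. These are the directions seen from 4 h to 24 h, here within 1 group. Whether the 2 differences share a source was not tested.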
